A study of Homo sapiens with 2 samples.

Results

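The 27 genes described here code for the enzymes that make cholesterol, for SREBP2 with the proteins that hold or escort it, and for proteins that bring sterol into the cell, move it or export it. They were chosen by name and ordered by pathway step, and they stand among 35038 genes with at least 1 matched transcript. RNA was measured in HepG2, an established line from a human liver tumour, in which doxycycline (Dox) induces SAMD4B from an added cassette. SAMD4B is an RNA-binding protein related to Smaug of the fruit fly. Both libraries came from cells with the cassette, grown in EMEM with serum and non-essential amino acids. One was grown without Dox and the other with 1 µg/ml Dox for 48 h. The sources used here give neither the promoter of the cassette nor whether the line is 1 clone. Each group is 1 library, so there is no spread between replicates and no test, and every difference is one between these 2 libraries. Cells given Dox without the cassette were not analysed here, so Dox itself and SAMD4B cannot be told apart.

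Cholesterol is built from acetyl-CoA through mevalonate, isoprenoid diphosphates, squalene and lanosterol. SREBP2, the transcription factor coded by SREBF2, sits in the endoplasmic reticulum membrane with its escort SCAP, and the INSIG proteins hold that complex there while sterol is plentiful. When sterol runs low, SCAP takes SREBP2 to the Golgi, where proteases free the part that enters the nucleus and switches on the synthesis genes. SREBP2 binds sterol regulatory elements and usually acts with NF-Y, which binds CCAAT boxes, and with Sp1, which binds GC boxes. The liver is a main site of cholesterol synthesis, lipoprotein uptake and sterol secretion.

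SAMD4B, the induced gene, was at 47.5 TPM without and 261 TPM with Dox, as the labels state. TPM is a level per transcript length, scaled to the same total in each library, so it may be compared between genes. The depth, on primary-assembly transcripts of at least 600 nt, was estimated at 18392622 fragments without Dox and 23752265 with Dox. Fragments on other transcripts are not in these totals. Transcripts of the mitochondrial genome held 10.2% and 11.2% of the TPM. All 7 hepatocyte markers looked at were at or above 64.5 TPM in both libraries, with AFP at 13406 and 12140 TPM, and 6 of them were lower with Dox, with log2 fold changes between -0.36 and 0.18. Of 10 markers of other cell types, 7 were at 0.38 TPM or below, among them PTPRC and CD3E of the leukocyte list, at 0 in both. The other 3 were CD68, of that same list, at 10.7 and 11.3 TPM, PDGFRB at 4.11 and 7.35 TPM, and PECAM1 at 4.57 and 4.55 TPM. The part of these differences in the results below was not tested.

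Promoter sequence came from RefSeq (GRCh38.p14), in windows of 250 bases before and 50 after each annotated start, and 24 of the 27 genes had at least 1 window. A window was matched to a transcript for 19 of these 24. So a window need not lie at the start of the transcripts measured here. The stretches below hold the letters that SREBP2 and NF-Y are known for, in 3 genes with an element of the sterol type and in 3 genes with several CCAAT boxes. Capitals mark the searched letters, in either orientation (ATTGG is CCAAT on the other strand), and each sequence runs 5′ to 3′ on the gene's strand. They lie at chr22:41832963-41832988 (SREBF2, plus strand), chr1:155308678-155308746 (FDPS, plus), chr1:162790592-162790666 (HSD17B7, plus), chr16:88663162-88663262 (MVD, minus), chr4:165327472-165327609 (MSMO1, plus) and chrX:152830823-152830966 (NSDHL, plus).
SREBF2: gacgcgccaTCACCCCACgcaccgct
FDPS: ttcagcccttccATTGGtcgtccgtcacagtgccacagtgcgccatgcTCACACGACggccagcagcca
HSD17B7: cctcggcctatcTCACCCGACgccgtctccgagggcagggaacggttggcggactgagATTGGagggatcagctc
MVD: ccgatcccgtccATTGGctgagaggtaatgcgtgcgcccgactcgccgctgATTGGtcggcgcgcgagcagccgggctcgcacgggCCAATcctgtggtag
MSMO1: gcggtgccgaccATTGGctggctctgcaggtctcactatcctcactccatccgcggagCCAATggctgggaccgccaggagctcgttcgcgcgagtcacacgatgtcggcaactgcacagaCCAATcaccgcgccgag
NSDHL: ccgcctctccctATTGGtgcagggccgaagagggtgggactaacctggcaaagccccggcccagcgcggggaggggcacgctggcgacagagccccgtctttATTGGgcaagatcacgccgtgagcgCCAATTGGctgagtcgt

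The sterol regulatory element TCACCCCAC was found in 1 of the 24 genes, SREBF2 itself, at position -133 from the annotated start, against 0.55% of the 9246 genes compared that have a window. With the A that comes before it in SREBF2, the element was found in 0.043% of them. The SREBF2 site lies within annotated exons, and SREBF2 and SREBF2-AS1 both have exons in this window. The printed stretch ends at 41832988, before the annotated SREBF2 gene begins at 41833079 (plus strand). The exon over the site therefore belongs to SREBF2-AS1 and not to SREBF2. The looser TCACNCNAC, which takes in that element, was found in SREBF2, FDPS and HSD17B7, 12.5% of the 24, against 3.35%. CCAAT was found in 18 of the 24 (75.0%), against 43.8% of the genes compared with a window. MVK, NSDHL and IDI1 held the most, with 5 each (for IDI1 over its windows together), and HMGCS1 had 2, at positions -155 and -100. The E-box CACGTG was found in 5 genes (20.8%, against 12.8%), and the GC box GGGCGG in 22 (91.7%, against 77.4%). All were searched on both strands. In PMVK, TM7SF2, MVK, NPC1, SREBF2 and EBP all 250 bases before the start lie within annotated exons. Most other windows do so in part or in whole, so these shares are not of promoter sequence alone. A match is a description of letters, not of binding.

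Of the 27 genes, 26 had a mean of at least 1 TPM over both libraries. INSIG1, the retention protein that SREBP2 induces, did not: all of its 6 transcripts were listed at 0 without Dox and it was at 0.061 TPM with Dox. Transcripts that could not be given a gene held 3.69% and 3.72% of the TPM, and whether fragments of INSIG1 lie among them was not tested. So no level of INSIG1 is given.

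Among the 26 genes compared, 21 were lower with Dox, which is 80.8% of them, while 47.1% of all 11841 genes compared were lower. The median log2 fold change, taken on TPM plus 1, was -0.26 over the 26 genes and 0.02 over all genes compared. Most differences were small, and in RNA from a whole culture fewer cells that express a gene and less RNA per cell cannot be told apart. HMGCS1 and MVD were at least 1.5-fold lower, against 3.81% of all genes, and no member was at least 1.5-fold higher, against 5.17%. Summed over the 19 synthesis enzymes the level was 2234 TPM without Dox and 1719 with Dox, lower by 23.0%. Without HMGCS1, FDPS and ACAT2 the sum was still lower by 15.04%. The plot of levels in pathway order shows this gene by gene.

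**Figure D1:**
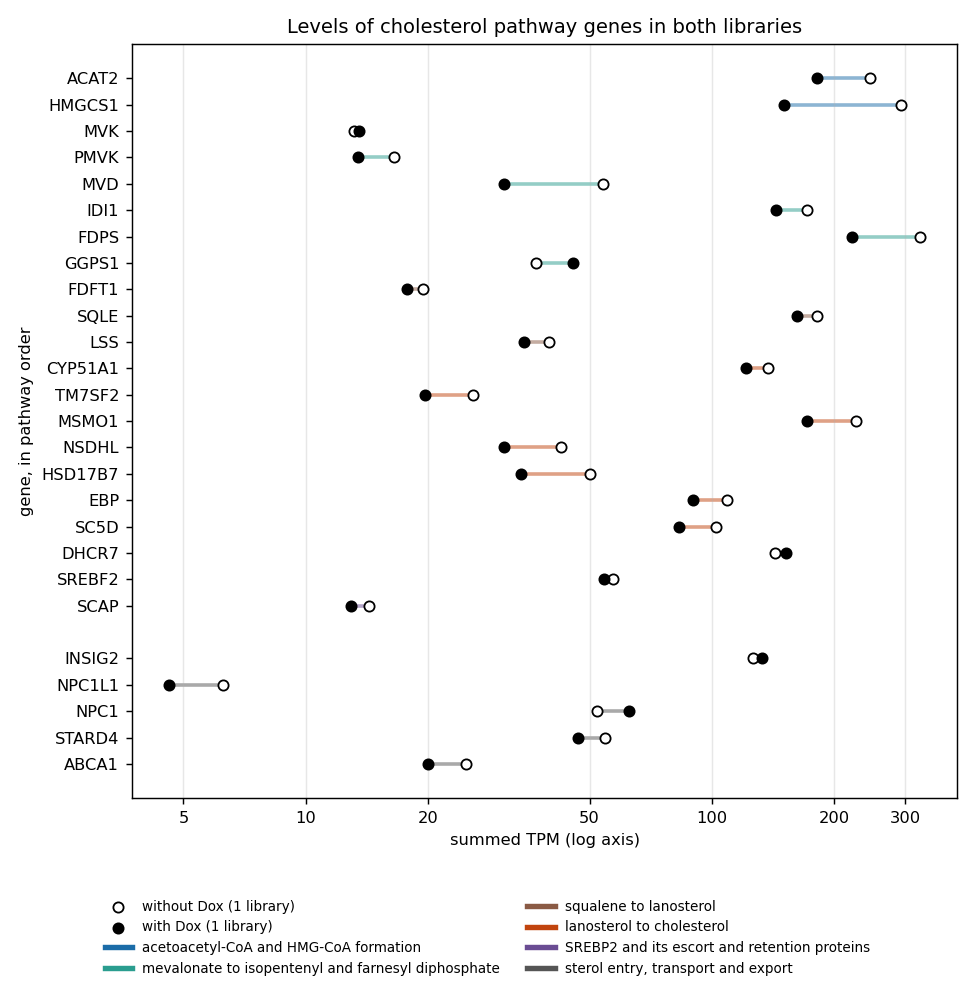
Summed TPM of the 26 genes compared (log axis), in pathway order from top to bottom, without Dox (open circles) and with Dox (filled circles), 1 library each, with line colour giving the role. The filled circle lies to the left for 21 genes, and to the right for MVK, GGPS1, DHCR7, INSIG2 and NPC1.

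Counting error was set beside these values through the fragments estimated on transcripts of at least 600 nt. These were divided by the total of such fragments in each library. The ratio, with Dox over without, has an exact 95% binomial interval for counting error only, which leaves out differences between cultures and the division of fragments between transcripts. The interval was taken where such transcripts held at least 80% of the TPM, which was so for 22 of the 26 genes. For 18 of these it lay entirely below 1, for 2 entirely above 1, and for 2 across 1. Over all 9592 genes with an interval, 29.1% lay entirely below 1 and 24.5% entirely above. An interval is narrower with more fragments, and these shares were not matched for level. All 26 members had a mean of at least 5 TPM, against 9489 of the 11841 genes compared.

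**Figure D2:**
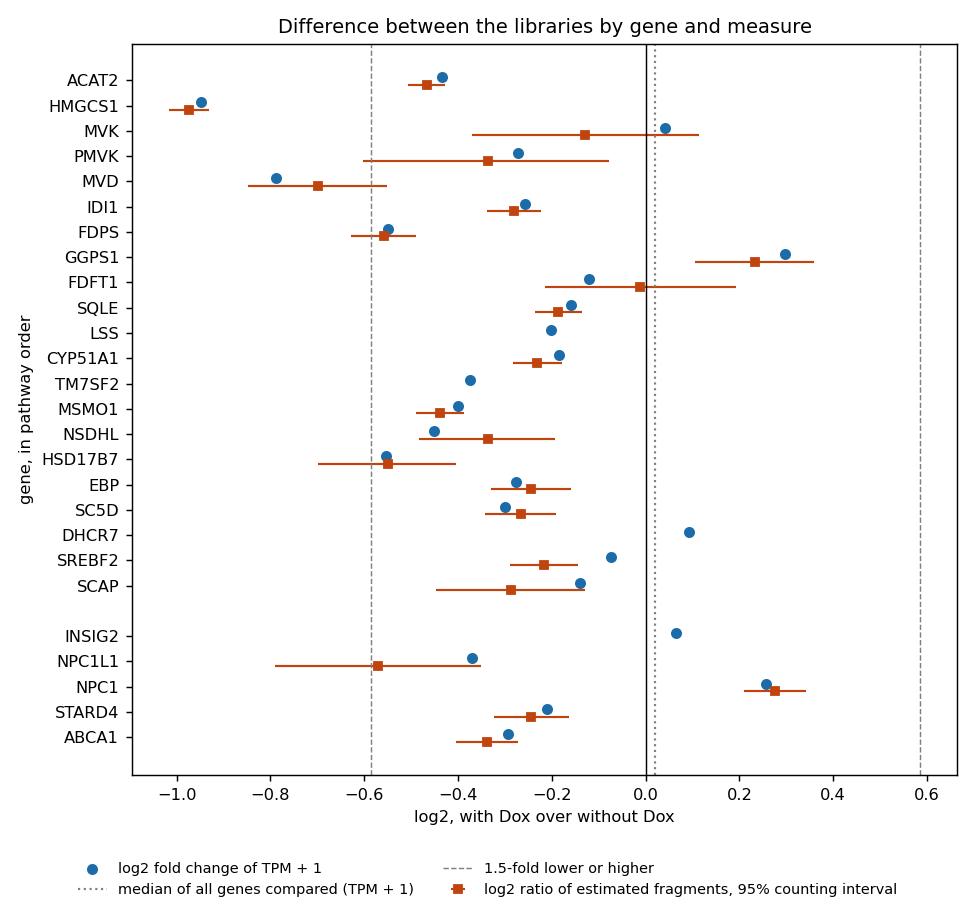
Log2 fold change of TPM plus 1 (circles) and log2 ratio of estimated fragments with its 95% counting interval (squares and bars), with Dox over without Dox, for each gene in pathway order. The dotted line is the median of all genes compared (0.02) and the dashed lines are 1.5-fold; HMGCS1 and MVD lie beyond the left one on both measures, and LSS, TM7SF2, DHCR7 and INSIG2 have no interval.

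The pathway begins with ACAT2, which joins acetyl-CoA units in the cytosol, and HMGCS1, which adds a further one to make HMG-CoA. HMGCS1 (chromosome 5, 43289395 to 43313512, minus strand, GRCh38) was at 292 TPM without and 151 TPM with Dox. This was the lowest log2 fold change of the 26, -0.95, at rank 117 from the lowest of all genes compared. Its estimated fragments were 11341 and 7461, a ratio of 0.51 (interval 0.49 to 0.52). By level it went from rank 2 to rank 6 among the members. ACAT2 was at 246 and 181 TPM (ratio 0.72, interval 0.70 to 0.74). Both entry enzymes were thus lower with Dox, with intervals that did not overlap each other.

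Of the 6 genes that turn mevalonate into isoprenoid diphosphates, 4 were lower and 2 higher with Dox, with a median of -0.26. MVK, the kinase that acts first, was at 13.1 TPM without and 13.6 TPM with Dox, and its fragment ratio of 0.91 had an interval of 0.77 to 1.08. PMVK, the next kinase, was at 16.5 and 13.5 TPM (interval 0.66 to 0.95). These kinases were the least abundant of the 19 synthesis enzymes in both libraries.

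MVD, which decarboxylates the product to isopentenyl diphosphate, was at 54.0 and 30.9 TPM, a log2 fold change of -0.79. Its fragment ratio was 0.62 (interval 0.56 to 0.68). Transcripts listed at 0 in 1 of the libraries held 10.9 TPM of MVD without Dox and 0.92 with Dox. Without those, the log2 fold change was -0.51, so HMGCS1 was then the only member at least 1.5-fold lower. IDI1, the isomerase of isopentenyl diphosphate, was at 172 and 144 TPM (ratio 0.82, interval 0.79 to 0.86).

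FDPS makes farnesyl diphosphate, where the sterol branch and the isoprenoid branch part. It was the most abundant member in both libraries, at 326 TPM without and 222 TPM with Dox (log2 fold change -0.55, ratio 0.68, interval 0.65 to 0.71). Its most abundant transcript, ENST00000447866, was at 103.9 and 84.7 TPM, a log2 fold change of -0.29. GGPS1 takes farnesyl diphosphate the other way, to geranylgeranyl diphosphate for protein prenylation. It was at 36.9 and 45.5 TPM, higher with Dox (ratio 1.18, interval 1.08 to 1.28). FDPS and GGPS1, which act on neighbouring steps, thus differed in opposite directions.

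The 3 genes from squalene to lanosterol were all slightly lower, with a median of -0.16. FDFT1, squalene synthase, was at 19.4 and 17.8 TPM, its interval of 0.86 to 1.14 crossed 1, and its sign changed under some other settings. SQLE, the squalene epoxidase and a controlled step of the pathway, was at 182 and 163 TPM (ratio 0.88, interval 0.85 to 0.91). LSS, which closes the rings to give lanosterol, was at 39.7 and 34.5 TPM. For LSS this sum includes transcripts of an alternate sequence of chromosome 21, and without them its log2 fold change was -0.31 in place of -0.20; on fragments it was -0.41.

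From lanosterol to cholesterol 7 of the 8 genes were lower, with a median of -0.34. CYP51A1, the lanosterol demethylase, was at 138 and 121 TPM (ratio 0.85, interval 0.82 to 0.88). TM7SF2, a sterol reductase, was at 25.8 and 19.7 TPM. The enzymes that take methyl groups off the ring came next. MSMO1, the methyl oxidase, was at 226 and 171 TPM (ratio 0.74, interval 0.71 to 0.77), NSDHL, the dehydrogenase that works with it, at 42.5 and 30.9 TPM (interval 0.72 to 0.87), and HSD17B7, the ketosteroid reductase, at 50.2 and 33.9 TPM (ratio 0.68, interval 0.62 to 0.76). This group of 3 had log2 fold changes of -0.40, -0.45 and -0.55, of which only the last came near 1.5-fold.

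For NSDHL most of the difference lay on 1 transcript. ENST00000432467 was at 14.6 TPM without and 4.65 TPM with Dox, while ENST00000370274 was at 15.8 and 14.6 TPM and ENST00000440023 at 12.2 and 11.6 TPM. HSD17B7, FDPS and CYP51A1 have pseudogene copies in the genome, with which fragments can be shared.

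EBP, the sterol isomerase, was at 109 and 90.0 TPM (ratio 0.84, interval 0.80 to 0.90), and SC5D, the desaturase, at 103 and 83.2 TPM (ratio 0.83, interval 0.79 to 0.88). DHCR7, a reductase of the final steps, was the exception at 143 and 152 TPM. Its longest abundant transcript, ENST00000355527, was level at 66.0 and 65.9 TPM. Most of the rest lay on short transcripts: ENST00000525346, of 520 nt, was at 36.1 and 73.5 TPM, and ENST00000531364, of 507 nt, at 31.7 TPM and then listed at 0. Counting only fragments of its transcripts from 600 nt upward (52.2% of the TPM), DHCR7 had a log2 fold change of -0.02. So DHCR7 had no direction that held across these measures.

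The 3 measured genes of SREBP2 control had a median of -0.07, but it ran from -0.22 on fragments to 0.22 on the most abundant transcript of each gene, so they had no common direction. The median of the 19 enzymes was -0.28, and -0.34 and -0.27 under those settings. SREBF2 was at 57.1 TPM without and 54.2 TPM with Dox. Its main coding transcript ENST00000361204 was at 37.7 and 32.8 TPM and the retained-intron transcript ENST00000462539 at 17.6 and 19.7 TPM, and the fragment ratio of the gene was 0.86 (interval 0.82 to 0.90). SCAP, the escort, was at 14.3 and 12.9 TPM (ratio 0.82, interval 0.73 to 0.91). The sign for SCAP also changed under some settings, and its TPM moved between transcripts: ENST00000648151 was at 3.08 TPM and then listed at 0, while ENST00000265565 was at 6.10 and 7.57 TPM.

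INSIG2, the retention protein that is not induced by SREBP2, was at 127 and 133 TPM. Its coding transcripts were at 48.0 and 59.1 TPM and its non-coding transcripts, the larger part of the gene's TPM, at 78.7 and 73.6 TPM. On fragments the INSIG2 ratio was 1.07, without an interval because transcripts of at least 600 nt held 60.0% of its TPM. The TPM of these genes say nothing of how much SREBP2 protein was cleaved.

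Among the genes of sterol entry, transport and export, 3 of 4 were lower. NPC1L1, the receptor for free sterol at the canalicular and intestinal surface, was the least abundant of the 26 at 6.26 and 4.62 TPM (ratio 0.67, interval 0.58 to 0.78). Of this, 1.24 TPM lay on ENST00000546276, listed at 0 with Dox, and without such transcripts the log2 fold change of NPC1L1 was -0.10 in place of -0.37. STARD4, a cytosolic sterol carrier that SREBP2 induces, was at 54.4 and 46.9 TPM (ratio 0.84, interval 0.80 to 0.89). ABCA1, which loads cholesterol onto apolipoprotein A-I and is induced by the sterol-sensing receptors LXR, was at 24.8 and 20.1 TPM (ratio 0.79, interval 0.76 to 0.83). NPC1, which lets lipoprotein cholesterol out of the lysosome, was at 52.1 and 62.4 TPM, higher with Dox (ratio 1.21, interval 1.16 to 1.27). ABCA1 and most synthesis genes were thus lower in the same library, and the cause was not tested.

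The annotated transcripts of a gene need not differ alike. For 17 of the 26 genes both the protein-coding transcripts and the other classes (retained intron, processed transcript and nonsense-mediated decay) averaged at least 1 TPM. The non-coding classes were lower with Dox in 16 of the 17, against 48.4% of 5463 genes with both classes, and the coding class in 14, against 49% of those genes. In 14 the log2 fold change of the non-coding classes lay below that of the coding class, against 49.8% of genes. The medians were -0.50 and -0.18, and over all such genes 0.02 and 0.01. SREBF2 was the only one of the 17 whose non-coding transcripts were higher.

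The widest gap was in SC5D. Its coding transcripts were at 89.9 TPM without and 79.1 TPM with Dox, and its non-coding ones at 12.7 and 4.11 TPM. Most of that lay on the retained-intron transcript ENST00000531140, at 10.8 and 2.75 TPM. Of the coding TPM of SC5D with Dox, 4.05 lay on ENST00000534230, listed at 0 without Dox. In EBP the coding transcripts were at 95.7 and 83.9 TPM and the others at 13.5 and 6.07 TPM. Of the coding TPM of EBP with Dox, 2.26 lay on ENST00000446158, listed at 0 without Dox. HMGCS1 showed no such gap, since its retained-intron transcript ENST00000507293 was at 46.4 and 25.0 TPM and its coding transcript ENST00000433297 at 232 and 122 TPM. In FDPS, where the classes are nearly as abundant as each other, they were at 178 and 133 TPM (coding) and at 148 and 89.1 TPM (other). Salmon divides fragments from shared exons between these classes, and what part that has in the gap was not tested.

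**Figure D3:**
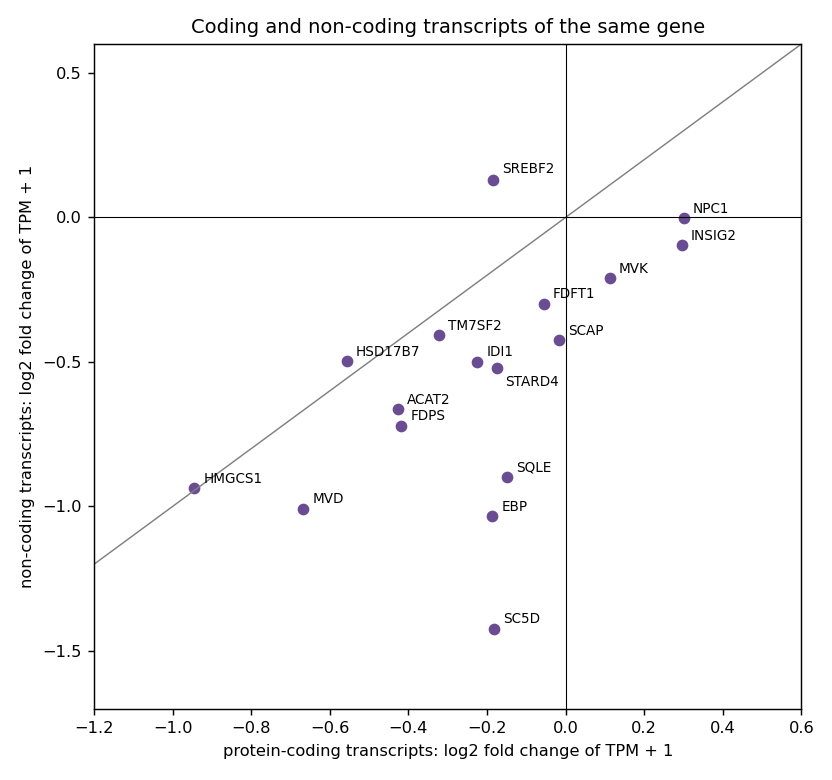
Log2 fold change of TPM plus 1 of the protein-coding transcripts (x axis) and of the other annotated transcripts (y axis) of the 17 genes with both, 1 point per gene, with the line of equal change. In 14 of the 17 genes the point lies below the line, farthest below for SC5D; SREBF2, HSD17B7 and HMGCS1 lie on or above it.

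A further 66 genes of the pathway, in 7 lists, were looked at beside the members, and 61 had a mean of at least 1 TPM. Of these 37 were lower (60.7%, against 47.1% of all genes compared) and 24 were higher. None differed by 1.5-fold in either direction, against 3.81% of all genes lower and 5.17% higher by that much. For each list below, the same 47.1% is the share to set beside its count of lower genes. Their median was -0.02, and their summed level was lower by 4.16%. The 11 genes of SREBP processing and sterol-regulated degradation had a median of 0.04, with 4 lower. The membrane protein ERLIN1 was at 122 and 112 TPM (interval 0.88 to 0.95), SREBF1, which codes for SREBP1, at 28.2 and 27.03 TPM, SPRING1, needed for SREBP activation, at 8.87 and 11.0 TPM (interval 1.05 to 1.25), and the ubiquitin ligase MARCHF6, which degrades squalene epoxidase, at 39.9 and 52.9 TPM, although its fragment ratio was 1.04 (interval 0.99 to 1.09).

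Genes of lysosomal and intracellular sterol transport had a median of -0.21, with 8 of 9 lower. STARD3, a late endosomal sterol carrier, was at 45.0 TPM without and 31.4 TPM with Dox (ratio 0.74, interval 0.66 to 0.83), and TMEM97, which SREBP2 induces and which binds NPC1, at 170 and 125 TPM (ratio 0.70, interval 0.67 to 0.72). OSBP, an oxysterol-binding carrier, was at 28.7 and 35.1 TPM, higher with Dox (interval 1.14 to 1.28). OSBPL2, of the same family, was at 27.6 TPM in both. Of the 8 sterol export and LXR genes 5 were lower, with a median of -0.10. NR1H3, which codes for LXR alpha, was at 22.9 and 20.4 TPM, NR1H2, for LXR beta, at 29.3 and 30.2 TPM, LPCAT3, an LXR target that remodels phospholipids, at 37.4 and 33.7 TPM, and the phospholipid transfer protein PLTP at 21.0 and 25.5 TPM.

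Esterification and receptor genes divided, with 4 of 6 lower and a median of -0.10, which was 0.02 on the most abundant transcript and -0.22 on fragments. NCEH1, which hydrolyses cholesteryl ester, was at 25.2 and 37.1 TPM (ratio 1.43, interval 1.34 to 1.52), and the endocytic receptor LRP1 at 36.5 and 50.9 TPM (ratio 1.39, interval 1.35 to 1.43). SCARB1, the HDL receptor, was at 48.4 and 42.5 TPM (interval 0.70 to 0.83), and SOAT2, which esterifies cholesterol in hepatocytes, at 34.1 and 30.8 TPM. In the isoprenoid branch 7 of 15 genes were lower and the median was 0.00. There FNTA, a prenyltransferase subunit, was at 64.4 and 80.1 TPM and RABGGTB at 210 and 253 TPM, while ICMT, which methylates prenylated proteins, was at 44.7 and 36.2 TPM and PDSS2, of ubiquinone synthesis, at 19.3 and 15.6 TPM.

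The 7 electron donors and scaffolds of sterol synthesis had a median of -0.11, with 5 lower. CYB5A, cytochrome b5, was at 246 and 201 TPM (ratio 0.76, interval 0.71 to 0.80), its reductase CYB5R3 at 132 and 112 TPM, EBPL, an EBP-like protein, at 85.2 and 86.9 TPM, and LBR, the other sterol reductase of this step beside TM7SF2, at 71.5 TPM in both. Of 6 other genes that respond to SREBP2, 5 were lower, and the median was -0.01. With TPM rescaled without transcripts of the mitochondrial genome, 3 of the 6 were lower, against 44.4% of all genes under that setting. TMEM97, given above, is counted in this list as well. The desaturase FADS1 was at 50.7 and 50.6 TPM and PANK3, of coenzyme A synthesis, at 31.5 and 37.3 TPM.

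**Figure D4:**
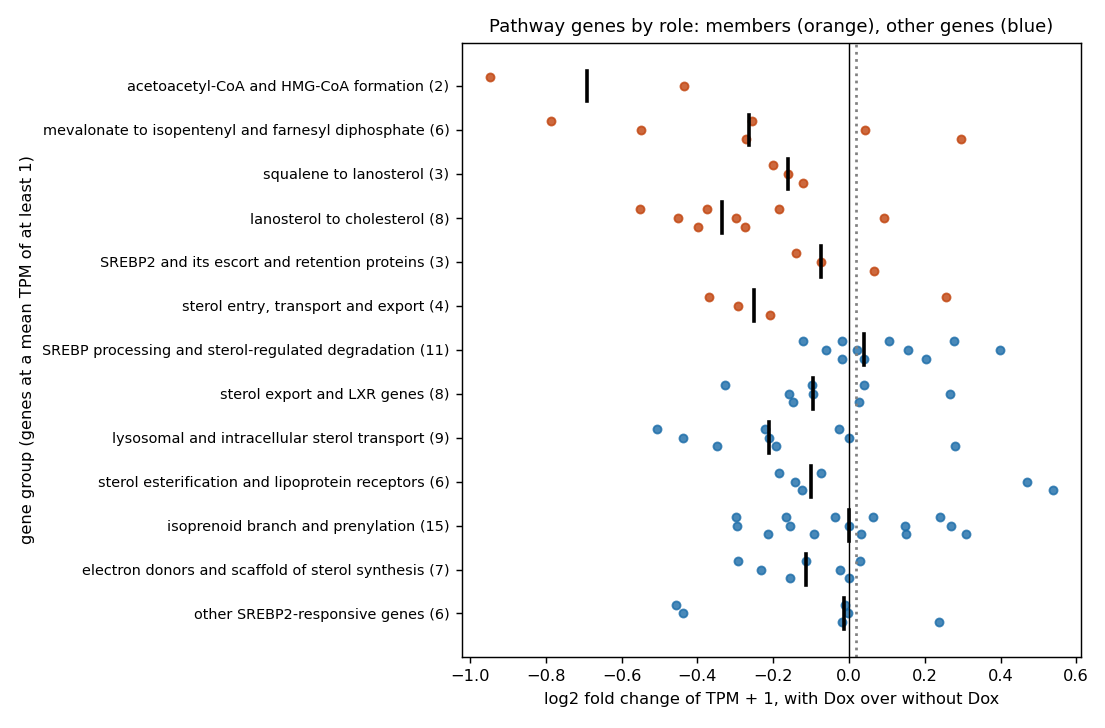
Log2 fold change of TPM plus 1, with Dox over without Dox, for each gene (points) of the 6 member groups (orange) and the 7 other lists (blue), with the number of genes in brackets, black bars for the medians and a dotted line for the median of all genes compared. The largest distance to the left is that of HMGCS1 at -0.95, and the medians of the other lists lie between -0.21 and 0.04.

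MMAB, an enzyme of vitamin B12 metabolism in that last list, lies head to head with MVK on chromosome 12, and their annotated extents overlap by 620 nt on opposite strands. MMAB was at 48.2 TPM without and 34.9 TPM with Dox (ratio 0.81, interval 0.73 to 0.90), while MVK was at 13.1 and 13.6 TPM. The sources used here do not say whether the libraries keep the strand, so fragments from the overlap may be counted for either gene. The MVK window held 5 CCAAT boxes, but all 250 bases before its start lie in annotated exons of MMAB or MVK. What part these boxes have in the level of either gene was not tested.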

How the data were processed

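The authors deposited TPM values for 184844 Ensembl transcripts in 2 libraries. The submitters' processing notes name Trimmomatic, Salmon and GRCh38.p13, and the sources used here give no version, option or annotation release. Where a fragment fits several transcripts, Salmon divides it between them. Transcripts were given genes through GENCODE 29 (161838), or, outside the primary assembly, through its HGNC table (10570); 12436 had no gene. TPM was summed per gene. Fold changes are log2 of TPM plus 1, with Dox over without, for genes at a mean TPM of at least 1. They understate the change of genes with low values. Depth was estimated from the steps of low TPM values of single-transcript genes: with offsets of 300 nt and 310 nt, 76.4% and 79.9% of values between 0.3 and 5.5 fragments lay within 0.1 of a whole number. Both were fitted to these same values. One fragment on 2000 nt is about 0.0395 TPM without Dox and 0.0314 TPM with Dox. Intervals are Clopper-Pearson. The depth estimate and the gene fold changes were also run on simulated fragments, drawn for each transcript apart. That run did not cover the division of fragments between transcripts or the intervals. Members, lists, the rule for named genes (all members, SAMD4B, and in each list the 2 lowest and 2 highest fold changes at a mean TPM of at least 5) and tests were chosen with earlier results of these data known. Transcripts named, and the closing remarks on them, were chosen after their values were seen. Other genes of the pathway were not analysed here. Python 3.11.15, numpy 2.4.6, pandas 2.3.3, scipy 1.17.1 and matplotlib 3.10.9 were used.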

Additional observations from a re-analysis of the deposited data

How the results depend on the processing

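Results were recomputed under 10 other settings of pseudocount, filter, scaling and transcript choice, and under 1 chosen after seeing the data (primary-assembly transcripts only). The count of members lower with Dox stayed between 19 and 23 of 26 (21 of 27 without the filter), and their median between -0.28 and -0.20, while that of all genes compared stayed between -0.02 and 0.04. The count at least 1.5-fold lower was 2, except without transcripts listed at 0 in 1 library, where it was 1. Of the 26 members, 19 were lower and 3 (GGPS1, INSIG2 and NPC1) higher under all 11. MVK, FDFT1, DHCR7 and SCAP changed sign under 1 or 2 of them: MVK ran from -0.13 to 0.21, FDFT1 from -0.14 to 0.05, DHCR7 from -0.02 to 0.45 and SCAP from -0.29 to 0.27. On fragments, where 23 of 26 members were lower, so were 53.5% of all genes. The median of the other SREBP2-responsive genes was -0.18, -0.15 and -0.13 on the most abundant transcript, without transcripts listed at 0 in 1 library, and on fragments, and that of the isoprenoid branch was -0.15 and -0.13 on the first and the last of these. On the same pair the median of the esterification and receptor genes was 0.02 and -0.22, and that of the sterol export genes was -0.18 and -0.16. FDPS was at -0.42 on protein-coding transcripts and -0.29 on its most abundant transcript. No fold of at least 1.5 changed direction. With 1 library a group, none could be left out. No paired analysis was possible because each group is 1 library. The cause of these changes was not tested.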
